A study of Homo sapiens with 8 samples.

Results

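The nuclear genes of oxidative phosphorylation (OXPHOS) were followed in maps of open chromatin of U2OS cells, a human osteosarcoma cell line. They were chosen by symbol from the GENCODE 44 protein-coding genes of chromosomes 1 to 22 and X: all symbols that begin with NDUFA, NDUFB, NDUFC, NDUFS, NDUFV, UQCR, COX4 to COX8 or ATP5, together with SDHA, SDHB, SDHC, SDHD and CYC1, and without the NDUFAF assembly factors. This gave 91 of 19970 genes. Complex I held 40 of them, 7 core subunits and 33 accessory ones, complex II held 4, complex III 10, complex IV 17 and complex V 20. NDUFA4 and NDUFA4L2 were counted with complex I by their symbols, although the NDUFA4 protein is found in complex IV.

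FAIRE-seq recovers DNA without nucleosomes, and its peaks are stretches of open chromatin. There were 8 libraries of 4 clones, the wild-type (WT) clones WT_4 and WT_5 and the knockout (KO) clones KO_C5 and KO_D2, which lack ZBTB48, a protein with zinc fingers that binds telomeric repeats and some promoters. Each clone gave 1 library of untreated cells and 1 of cells given 250 U/ml of interferon gamma (IFNγ), for 24 hours by the labels and for longer by the study's text, so the duration is uncertain. Replicate 1 was WT_4 or KO_C5 and replicate 2 was WT_5 or KO_D2, so a difference between the genotypes rests on 2 clones against 2, and open chromatin shows neither the RNA of ZBTB48 nor its protein.

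The lists held between 16730 and 37533 peaks each, and the 2 lists of a group differed in length. The fewest fragments that any called summit held were 5 or 6, and the lowest local background, which stands in for depth, ran from 0.621 to 1.08 fragments. A gene without a peak is therefore not shown to be closed: no peak was called there at this depth. Of 6 genes of the osteoblast lineage, RUNX2 had a promoter peak in all 8 libraries, TWIST1, SPARC, COL1A1 and ALPL in 1 to 7 and COL1A2 in none. PTPRC and CD3E of blood cells, ALB of liver and INS of pancreas had none in any library, so that these 4 defining markers of other cell types were at 0.

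Oxidative phosphorylation passes electrons from NADH and succinate to oxygen through complexes I to IV of the inner mitochondrial membrane, and complex V uses the proton gradient this builds to make ATP. Most subunits are encoded in the nucleus, scattered over many chromosomes, and the rest by mitochondrial DNA, so the subunits of a complex have to be made in step. Promoters of these genes are known to be bound by NRF1, by GABP of the ETS family, by YY1 and, with the coactivators of the PGC-1 family, by the nuclear receptor ESRRA. For several subunits the genome holds a second gene, whose product replaces the common one in heart, skeletal muscle, lung or testis.

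The sequences below show such motifs in promoters of the set. Each motif shown is absent from most of the 91 genes: the most frequent, YY1, was in 22. Each is a stretch of 30 bases, 5′ to 3′ on the strand of the gene, from the RefSeq promoter table of GRCh38, which matched 71 of the 91 genes, and the capitals mark the motif on either strand. NRF1 is read as GCGCATGC, ETS/GABP as CCGGAAGT, YY1 as AAGATGG and the telomeric repeat bound by ZBTB48 as TTAGGG. In order, the stretches lie at chr1:17054214-17054243 (minus strand), chr10:7788144-7788173 (plus), chr2:97645915-97645944 (plus), chr2:97646014-97646043 (plus), chr17:75047053-75047082 (minus), chr11:63974590-63974619 (plus), chr1:17054004-17054033 (minus), chr3:48609605-48609634 (minus), chr19:1383913-1383942 (plus), chr5:53560649-53560678 (plus), chr1:46303566-46303595 (plus) and chr5:140647640-140647669 (minus).
SDHB, NRF1: aagccaaatggGCATGCGCcgctactgcgc
ATP5F1C, NRF1: ggggagcttcgGCGCATGCgcgctgaggcc
COX5B, NRF1: ggcagagctggGCATGCGCaatttccgccc
COX5B, ETS/GABP: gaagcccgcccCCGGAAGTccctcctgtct
ATP5PD, ETS/GABP: cccgggaagatACTTCCGGaaccagccctc
COX8A, ETS/GABP: ccagctccagaACTTCCGGccagcgcagcc
SDHB, YY1: cgtcaggagccAAGATGGcggcggtggtcg
UQCRC1, YY1: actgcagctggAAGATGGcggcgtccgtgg
NDUFS7, YY1: aggccgaggccAAGATGGcggtgctgtcag
NDUFS4, YY1: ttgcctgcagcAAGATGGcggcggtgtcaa
UQCRH, telomeric repeat: aacatcagctacCCCTAAcctctgcctgcg
NDUFA2, telomeric repeat: atgggctaggctTTAGGGtccgcggttggt

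Exact matches were counted in windows of the genome of 300 bases, 250 before and 50 from the canonical transcription start site, for all 91 genes and all protein-coding genes. The YY1 letters were in 22 of 91 windows (24.2%), against 6.42% of all protein-coding genes and 7.62% of the 10217 genes with a peak in all 8 libraries. NRF1 was in 13 (14.3%), against 4.25% and 6.47%. ETS/GABP was in 13 (14.3%), against 6.15% and 9.06%. The SP1/KLF letters GGGGCGG went the other way, with 26 (28.6%) against 44.5% and 61.0%. The ESRRA letters TCAAGGTCA were found for SDHD and ATP5MC3 only, CCAAT of NF-Y in 31.9% against 36.0% of all genes, and TATAAA in 6 genes (6.59%) against 9.73%. For TTAGGG the count was 9 (9.89%) against 8.49% and 7.36%, and for its control GTGAGT 7 (7.69%) against 11.3% and 9.58%. Of the 60 OXPHOS genes with a peak in all 8 libraries, 23.3% had YY1, 18.3% NRF1, 16.7% ETS/GABP and 35% SP1/KLF. In the same 60 genes TTAGGG was in 8 (13.3%) and GTGAGT in 4 (6.67%). A match is a description of the letters and not of a bound site.

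The letters AAGATGG contain an ATG. In 15 of the 22 genes (16.5% of the set, against 1.93% of all protein-coding genes) that ATG was an annotated start codon, so the match sat where translation begins. Among them were NDUFA3, NDUFA6, NDUFA9, NDUFB8, NDUFS4, NDUFS7, SDHB, SDHC, CYC1, UQCRC1, ATP5ME and ATP5PO. In the other 7 genes (7.69%, against 4.49% of all genes) it lay elsewhere in the window. In the stretches of SDHB, UQCRC1, NDUFS7 and NDUFS4 above, the match begins at base 11, 24, 18 and 22, counted from 1 at the RefSeq start of the gene, and each is followed by cgg.

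**Figure D1:**
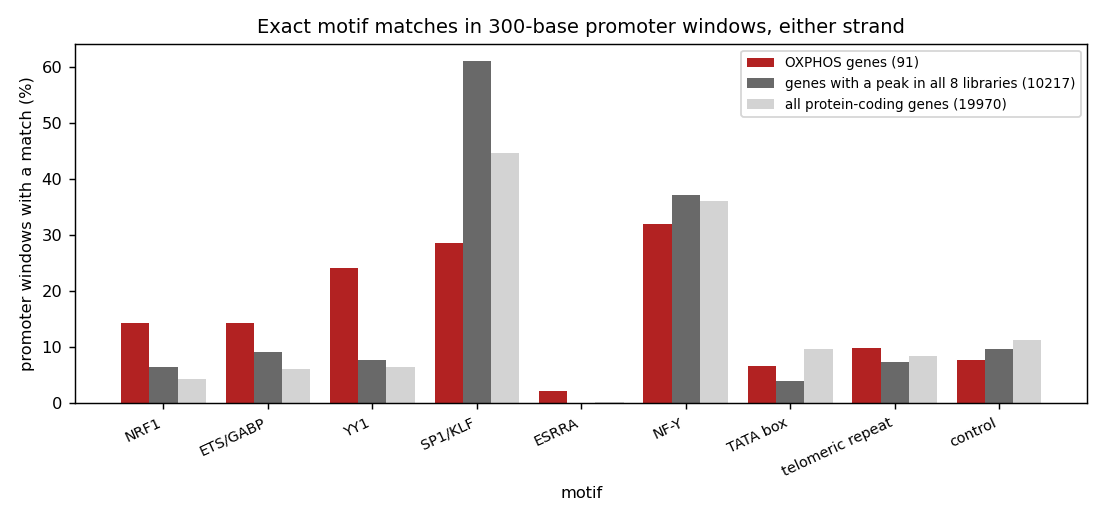
Share of promoter windows with an exact motif match on either strand (y axis, percent), for the 91 OXPHOS genes, the 10217 genes with a peak in all 8 libraries and all 19970 protein-coding genes. The bars of the OXPHOS genes are higher for NRF1, ETS/GABP and YY1 (24.2% against 6.42%) and lower for SP1/KLF (28.6% against 44.5%).

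A promoter peak was counted where a peak of a list came within 500 bp of any annotated start site of a gene. Of the 91 genes, 60 (65.9%) had one in all 8 libraries, against 51.2% of all protein-coding genes. In 7 (7.69%) no library had one, against 27.8%, and in 24 (26.4%) some libraries did, against 21.1%. No OXPHOS gene had a peak in only 1 or 2 libraries. Without the 2 libraries of WT_4, which stand apart below, 68 genes had a peak in all libraries (against 52.6% of all genes), 16 in some and the same number, 7, in none. Core subunits of complex I such as NDUFV1, which holds the NADH site, and the iron-sulphur proteins NDUFV2 and NDUFS1 had a peak in every library, as did all 4 subunits of complex II. The same held for 21 of 33 accessory subunits of complex I, 7 of 10 genes of complex III, 6 of 17 of complex IV and 15 of 20 of complex V.

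The 7 genes with no peak were COX4I2, COX7A1, COX7B2, COX8C, NDUFA4L2, UQCRHL and ATP5MGL. All 7 are among 9 genes that were listed as tissue-restricted isoforms or as copies of a widely expressed subunit. Of their partners, COX4I1, NDUFA4 and UQCRH had a peak in all 8 libraries, COX8A and ATP5MG in 7, and COX7A2 and COX7B in 5. COX4I1, the common form of subunit 4, had percentiles from 77.7 to 94.1, where the percentile is the rank of the −log10 p of a peak within its own list and 100 is the strongest. NDUFA4 ran from 86.5 to 97.7 and UQCRH, the hinge protein of complex III, from 70.8 to 85.3. UQCRHL is an intronless copy of UQCRH, and reads of low mapping quality had been removed, so its lack of a peak is uncertain.

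The other 2 listed isoforms had peaks that did not lie at the canonical start site. COX6A2, the heart and muscle form of subunit 6A, had a peak in all 8 libraries with percentiles from 50.3 to 76.9. Its summit lay a median of 687 bp downstream of the canonical start, over the 3′ end of this short gene (chr16:31427535-31427827 in untreated WT_4). It was missed with a window of 250 bp, where no library had it. COX6B2, the testis form of subunit 6B, had a peak in 4 libraries with percentiles of 38.4 (WT_4), 16.5 (WT_4 with IFNγ), 9.0 (WT_5) and 4.4 (KO_D2 with IFNγ), within the gene and a median of 727 bp downstream of its start. The partner COX6A1 had a peak in all 8 libraries and COX6B1 in 7.

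**Figure D2:**
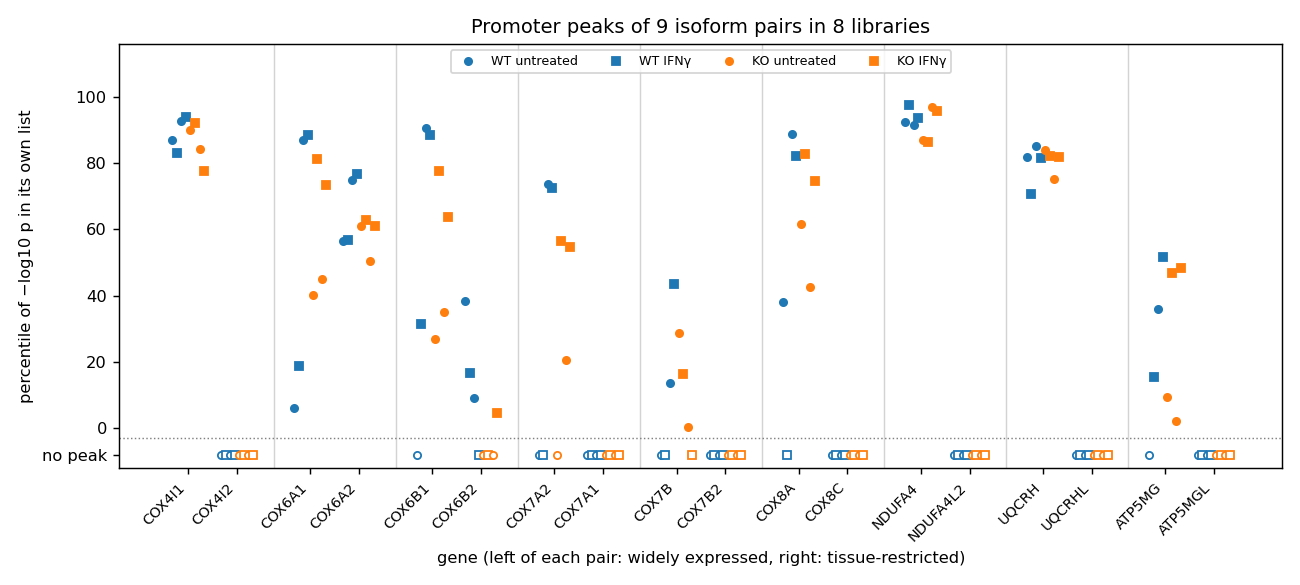
Percentile of the strongest promoter peak within its own list (y axis, with "no peak" below 0) for 9 pairs of genes, the widely expressed gene on the left and the tissue-restricted one or the copy on the right. Each point is a library, WT in blue and KO in orange, untreated as circles and IFNγ as squares, with open symbols where there was no peak. In 7 of the 9 pairs the right-hand gene had no peak in any library.

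Each complex held strong and weak promoters among the 60 genes with a peak in all libraries. In complex V, ATP5F1E, the epsilon subunit of the F1 part, had the highest mean percentile of all 91 genes, 98.9, with values from 97.8 to 99.9 (chr20:59031954-59032821 in untreated WT_4). ATP5PD, subunit d of the peripheral stalk, stood close to it, from 97.9 to 99.8. The lowest in complex V was ATP5MC3, a gene for the c-ring, with a mean of 60.4. In complex III, CYC1, cytochrome c1, ran from 98.0 to 99.6 with a mean of 98.7, and UQCRQ was lowest with a mean of 69.3. The values of ATP5F1E, ATP5PD and CYC1 overlapped.

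In complex I, the core subunit NDUFV2, an iron-sulphur protein of the NADH module, had a mean percentile of 95.2 and the core subunit NDUFS8 of 60.0. Among accessory subunits NDUFV3 had 93.5 and NDUFB1 40.7, the lowest of the 60. In complex IV the range was from 90.9 for COX5A to 55.0 for COX6A1. In complex II, SDHB, the iron-sulphur subunit, had a mean of 94.1, SDHA, the flavoprotein that oxidizes succinate, 89.2, and the membrane anchors SDHC and SDHD 84.4 and 75.9. SDHB is the gene with both an NRF1 and a YY1 match above, and its peak in untreated WT_4 (chr1:17053917-17054505) covered both stretches.

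As a group the 60 did not stand apart in strength. Their median mean percentile was 77.2, against 76.9 over the 10217 protein-coding genes with a peak in all libraries. The median summit lay at −86.5 bp from the canonical start site (negative is upstream), against −74 bp, and 44 of 60 (73.3%) lay within 150 bp of it, against 69.0%. For ATP5F1A and NDUFC1 the peak lay at another annotated start, with median summits at −6029 and 1082.5 bp from the canonical one. For NDUFS3 the strongest peak lay at the canonical start in 4 libraries, with summits from −51 to 26 bp, and at a start far upstream in the other 4, from −13516 to −13505 bp, so its strength was not read at the same place in each library. Widths were taken over all genes with a peak in a library, and not over the 60 alone. The peaks of OXPHOS genes were narrower than those of protein-coding genes in each of the 8 libraries, with medians from 347 to 509 bp against 454 to 649 bp.

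Many of these promoters lie near an annotated start site of another gene. A start site of another protein-coding gene lay within 500 bp for 42 of the 91 (46.2%, against 21.6% of all genes), and on the opposite strand for 33 (36.3%, against 16.2%). Among genes with a peak in all 8 libraries, the opposite-strand share was 45% of the OXPHOS genes, against 24.5% of protein-coding genes. Among the pairs on opposite strands were ATP5PF with GABPA (55 bp), which encodes a subunit of GABP itself, COX4I1 with EMC8 (4 bp), NDUFB9 with TATDN1 (7 bp), NDUFS1 with EEF1B2 (76 bp) and NDUFS6 with MRPL36 (41 bp), a protein of the mitochondrial ribosome. A peak at such a start cannot be assigned to either gene. NDUFC2-KCTD14 and ATP5MF-PTCD1 are readthrough genes that start with NDUFC2 and ATP5MF and so share their peaks, and leaving them out gave 59 genes in all libraries and 23 in some.

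**Figure D3:**
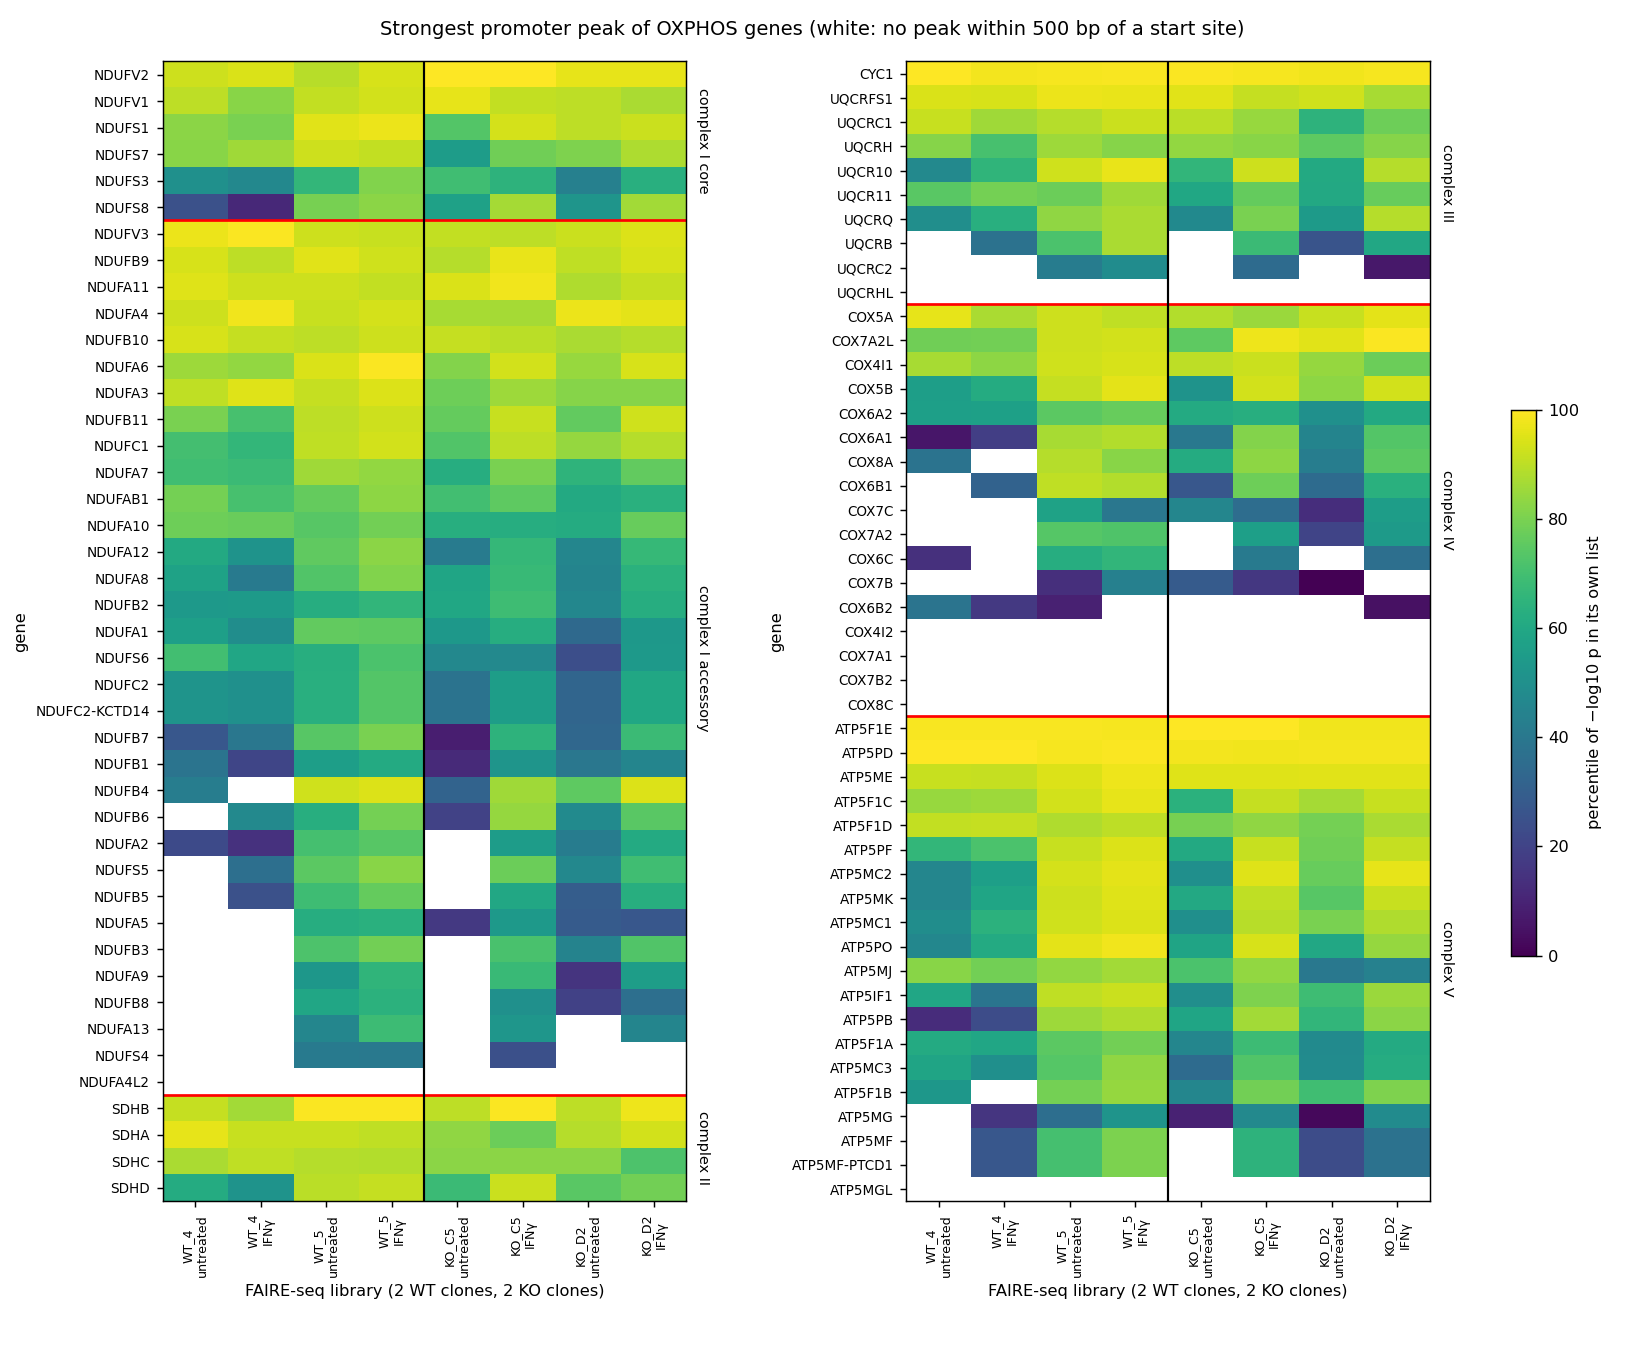
Percentile of the strongest promoter peak within its own list (colour, 0 to 100) for 90 of the 91 OXPHOS genes (rows, by complex) in each of the 8 libraries (columns, WT left and KO right of the black line). White means that no peak lay within 500 bp of a start site, as in every library for 7 genes, and more often in WT_4 and in untreated KO_C5 than in WT_5.

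The 24 genes with a peak in some libraries included 11 accessory subunits of complex I. They were NDUFA13 and NDUFS4 (4 and 3 libraries), NDUFA9, NDUFB3 and NDUFB8 (5), NDUFA5, NDUFB5 and NDUFS5 (6), and NDUFA2, NDUFB4 and NDUFB6 (7). Complex III had UQCRC2 (4) and UQCRB (6). Complex IV had COX6B2 (4), COX6C, COX7A2 and COX7B (5), COX7C (6), and COX6B1 and COX8A (7). Complex V had ATP5MF and ATP5MF-PTCD1 (6), and ATP5F1B and ATP5MG (7). ATP5F1B, the catalytic beta subunit of ATP synthase, had percentiles from 45.8 to 84.3 and lacked a peak only in WT_4 with IFNγ.

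NDUFS4, an accessory subunit next to the NADH module, had the fewest peaks. Its percentile was 40.9 in untreated WT_5, 40.6 in WT_5 with IFNγ and 24.5 in KO_C5 with IFNγ, with 17 to 20 fragments at the summit and none called elsewhere. UQCRC2, a core subunit of complex III, had 41.8 and 48.7 in WT_5 and 34.9 and 6.3 in KO_C5 and KO_D2 with IFNγ. Its partner core subunit UQCRC1 had a peak in every library, from 64.8 to 92.0. NDUFA13 was present in the same 4 libraries as UQCRC2, at 46.1, 68.4, 52.5 and 45.4. None of these 3 promoters went above 68.4 in any list. When each list was cut to its 16730 strongest peaks, NDUFS4 and UQCRC2 had a peak in none.

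The promoters of the 24 were poorer in G and C. Over the kilobase around the canonical start the median was 54.4%, against 59.9% for the 60 genes in all libraries and 58.6% for the 7 with none. Over all protein-coding genes it was 60.7% for those with a peak in some libraries and 65.0% for those with a peak in all, both above the OXPHOS genes of the same class, and 50.7% for those with none, below them. TATAAA was in 4 of the 24 (16.7%, against 8.15% of protein-coding genes in some libraries), the genes NDUFA2, NDUFA9, UQCRC2 and COX7B. The part of base composition in which promoters were called was not tested.

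The number of OXPHOS genes with a promoter peak was compared between libraries. Untreated WT_4 had 66 and WT_5 had 84. With IFNγ they had 70 and 83. Untreated KO_C5 had 69 and KO_D2 had 79, and with IFNγ they had 83 and 82. The low libraries were both of WT_4 and untreated KO_C5, and WT and KO overlapped.

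**Figure D4:**
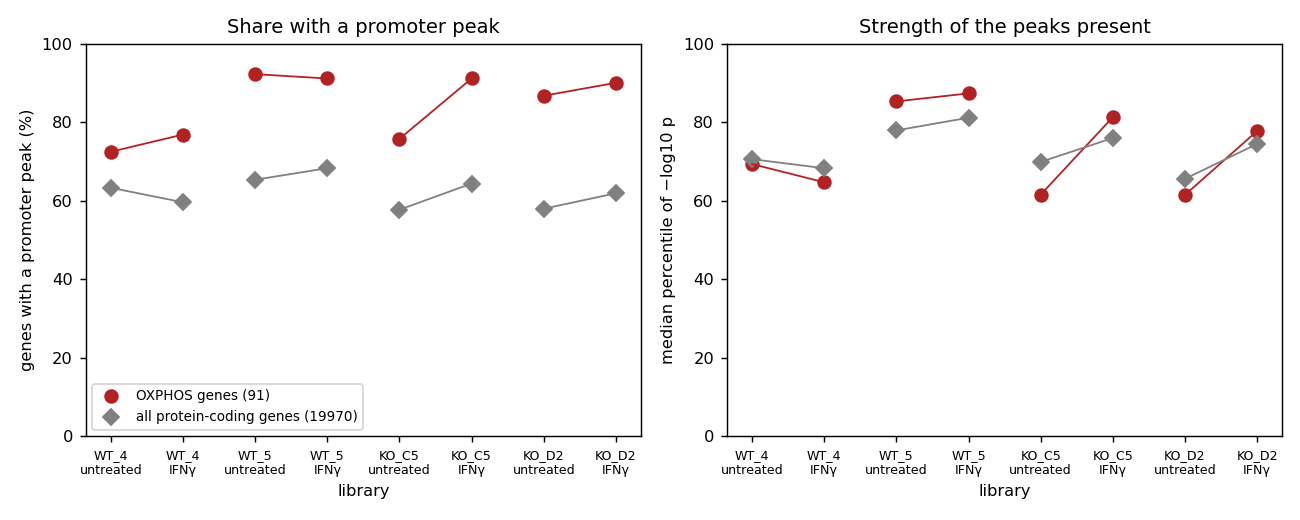
Left, share of genes with a promoter peak (y axis, percent) in each library for the 91 OXPHOS genes (red) and all 19970 protein-coding genes (grey), with lines that join the 2 libraries of a clone. Right, the median percentile of the peaks present. The OXPHOS share ran from 72.5% to 92.3% and was lowest in WT_4, while the share of all genes ran from 57.8% to 68.3%.

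Across all protein-coding genes untreated WT_4 had a peak at 63.4%, against 65.4% in WT_5, 57.8% in KO_C5 and 58.0% in KO_D2. With IFNγ WT_4 was the lowest of the 4, with 59.7% against 68.3%, 64.4% and 62.0%. Between the 2 untreated WT libraries the OXPHOS genes differed by 18 genes, or 19.8 percentage points, and all genes by 2.04 percentage points. With IFNγ the differences were 13 genes, or 14.3 percentage points, and 8.68 percentage points. In 10 OXPHOS genes (11.0%, against 4.03% of all genes) both WT_5 libraries and neither WT_4 library had a peak, and in 0 the reverse, against 0.426%. The 10 were NDUFA5, NDUFA9, NDUFA13, NDUFB3, NDUFB8, NDUFS4, UQCRC2, COX7A2, COX7B and COX7C. Of these, NDUFB3 had 72.0 and 78.7 in WT_5 and COX7A2 had 73.8 and 72.5, so that peaks above the middle of the WT_5 list were not called in WT_4.

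The same split was seen in strength. Among genes called in all libraries, COX6A1, a subunit of complex IV, had percentiles of 6.0 and 18.7 in WT_4, 86.9 and 88.5 in WT_5, 40.0 and 81.4 in KO_C5 and 45.1 and 73.3 in KO_D2, each untreated and then with IFNγ. ATP5PB, subunit b of the peripheral stalk, had 12.8 and 23.2 in WT_4 against 85.4 and 88.1 in WT_5. NDUFS8 had 24.8 and 11.6 in WT_4 against 79.4 and 82.8. In all 3 genes both WT_4 libraries lay below the other 6.

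To set libraries of different enrichment side by side, log2 of the fold enrichment of the strongest promoter peak was centred on the median of each library over the 10217 genes with a peak in all 8. These centred values moved with G plus C content. The Spearman correlation across genes of the WT_5 minus WT_4 difference with the G plus C content of the promoter was −0.38, a description over genes that share their libraries. Its median was 0.21 in the 2580 genes with the lowest content (up to 60.1%) and −0.31 in the 2522 with the highest (from 70.0%). Of the 60 OXPHOS genes 31 were among the former and 5 among the latter, and their median was 0.30, against −0.12 over all genes. The part of base composition in the difference between the clones was not tested.

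The comparison of KO with WT asks whether the loss of ZBTB48 goes with a change at these promoters. No OXPHOS gene had a peak in every WT and no KO library (0 of 91, against 0.235% of all genes), and none in every KO and no WT library (0, against 0%). A peak in more WT than KO libraries was seen for 4, NDUFA2, NDUFS4, COX6B2 and COX6C (4.40%, against 13.2%). The opposite, more KO than WT libraries, was seen for 13 (14.3%, against 3.81%). This last count rests on WT_4. Without that clone 0 genes had a larger share of KO libraries and 16 a larger share of WT libraries. Without WT_5 the counts were 21 and 2. Shares of all genes were not set beside these counts, so the swing is not shown to be particular to the set. In untreated cells alone, COX6B2 and COX6C had a peak in both WT and no KO library (2 genes, against 1.77% of all).

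Peak strength was tested between genotypes with limma on the mean of the 2 libraries of each clone, with Benjamini-Hochberg adjustment over 10217 genes. No gene passed an adjusted p of 0.05 (0%), and so none of the 60 OXPHOS genes that were tested, while 591 genes and 7 OXPHOS genes had an unadjusted p under 0.05. The smallest adjusted p was 0.778. The median difference of the 60 was −0.04 on the log2 scale, against 0.01 over all genes, and it turned to 0.04 when summit pileup took the place of fold enrichment. It was −0.30 (68 genes) without WT_4 and 0.08 without WT_5, so that its sign depended on the WT clone. The counts were 0 (0%) also in untreated clones alone, where 768 genes and 6 OXPHOS genes had an unadjusted p under 0.05, and with IFNγ alone, where 892 and 7 did.

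The largest differences relative to their error were in subunits of complexes I and III. NDUFA3, an accessory subunit of complex I, had centred values of 1.01 and 1.33 in WT_4, 0.85 and 0.95 in WT_5, −0.12 and −0.01 in KO_C5 and 0.28 and −0.11 in KO_D2. All 4 KO libraries lay below all 4 WT libraries, and the difference was −1.02 ± 0.27 (SE, limma, adjusted p = 0.778). The deposited fold enrichment of its peak ran from 53.9 to 81.9 in WT and from 18.3 to 27.5 in KO. Fold enrichment has 2 parts, and the summit pileup, in fragments, overlapped, from 103 to 144 in WT against 88 to 133 in KO, while the local background was 0.621 to 1.02 in WT and 2.59 to 4.53 in KO. With summit pileup in its place the difference was −0.24. NDUFS6, a zinc-binding accessory subunit of complex I, had −0.24 and −0.44 in WT_4 and −0.89 and −0.78 in WT_5, against −1.54 and −1.83 in KO_C5 and −1.76 and −1.31 in KO_D2. Its pileup ran from 31 to 57 in WT against 27 to 49 in KO, over a local background of 0.696 to 1.11 and 3.65 to 5.33, and with summit pileup its difference was −0.03. UQCRFS1, the Rieske iron-sulphur protein of complex III, had values from 0.86 to 1.06 in WT and from −0.26 to 0.72 in KO. Its pileup ran from 108 to 183 in WT against 142 to 217 in KO, and with summit pileup its difference was 0.10.

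In the other direction NDUFV2 had 0.47 and 0.60 in WT_4 and −0.03 and 0.20 in WT_5, against 1.97 and 1.44 in KO_C5 and 1.21 and 0.97 in KO_D2. Its difference was 1.09 ± 0.33 (SE, limma, adjusted p = 0.778) and 0.57 with summit pileup, where WT had 131 to 189 and KO 154 to 331 fragments. NDUFB2 and ATP5ME were the other 2 genes with every KO library above every WT library. The 3 genes (5% of 60) compare with 6.22% of the 10217 genes. The 4 genes with every KO library below every WT library, NDUFA3, NDUFS6, UQCRFS1 and ATP5F1A (6.67%), compare with 5.72%. In centred summit pileup, an alternative chosen after these values were seen, 0 of the 60 had every KO library above (against 0.607%) and 0 below every WT library (against 0.695%). These 7 genes thus stood apart only when the summit was set over its local background, whose median over the peaks of all genes was itself 1.01 to 1.69 fragments in the WT and 1.94 to 3.21 in the KO libraries. COX7A2L, which takes part in the assembly of respiratory supercomplexes, had 1.54 and 0.99 in the KO clones with IFNγ and −0.27 and 0.00 in the WT clones with IFNγ, with overlap in untreated cells.

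The result depended on 1 clone. Without WT_5, 175 genes passed in the limma fit of genotype, 160 higher and 15 lower in KO, and 3 of them were OXPHOS genes: NDUFS8 (log2 difference 2.41, adjusted p = 0.0056), COX6A1 (1.97, adjusted p = 0.011) and ATP5PB (2.41, adjusted p = 0.0056). These are the genes that were low in WT_4 and not in WT_5, and that fit leaves WT_4 as the only WT clone. The lone clone was assumed to vary like the others. That fit covered 10242 genes, 60 of them OXPHOS genes.

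Since ZBTB48 binds TTAGGG, the genes with that hexamer were looked at alone. In the paper ZBTB48 also binds a site of the CIITA promoter without this hexamer, so the hexamer does not mark all of its sites. Binding at these genes was not tested. Of the 9, 8 were tested (NDUFA2 lacked a peak in 1 library). Their genotype differences ran from −0.66 (ATP5MJ) to 0.40 (UQCRH), 3 above and 5 below 0, and 0 had an unadjusted p under 0.05 in limma. NDUFA4 stood at −0.44, NDUFA11 at 0.33, UQCR11 at −0.25, NDUFAB1 at −0.18, COX6A2 at 0.11 and ATP5IF1, the inhibitor of ATP synthase, at −0.05. The summit of COX6A2 lay downstream of its start, as given above. For NDUFA11 a summit lay within 500 bp of a start in 2 of 8 libraries.

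**Figure D5:**
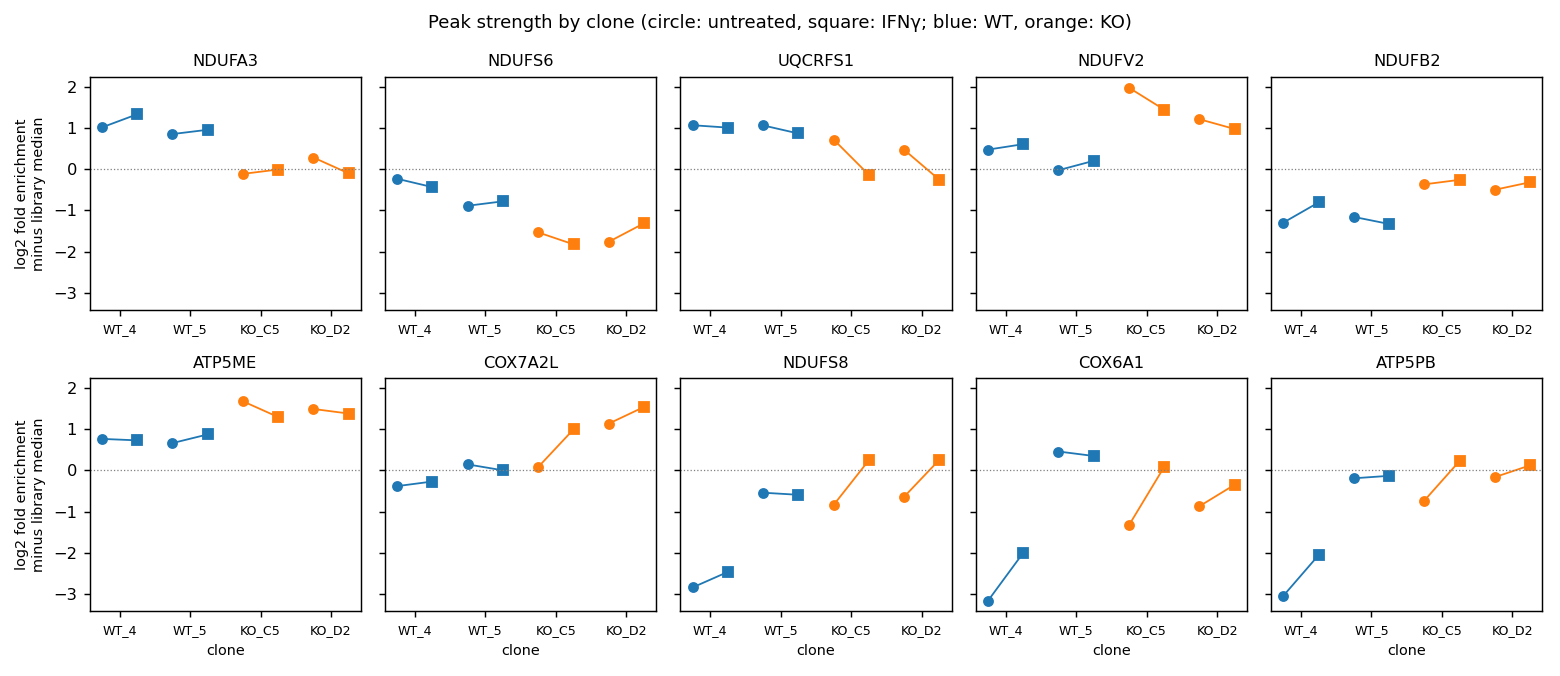
Log2 fold enrichment of the promoter peak minus the median of its library (y axis) by clone (x axis) for 10 OXPHOS genes, with lines that join the untreated (circle) and the IFNγ library (square) of a clone, WT in blue and KO in orange. NDUFA3, NDUFS6 and UQCRFS1 lay lower and NDUFV2, NDUFB2 and ATP5ME higher in all KO libraries, which was not so in summit pileup, while NDUFS8, COX6A1 and ATP5PB were low in WT_4 alone, between −3.16 and −2.00.

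The comparison of treated with untreated cells asks whether IFNγ changed these promoters. The number of OXPHOS genes with a peak changed by 4 in WT_4, by −1 in WT_5, by 14 in KO_C5 and by 3 in KO_D2. Lists changed too, by −2802 peaks in WT_4 and by 7966, 8202 and 7997 in the other clones. A peak in more IFNγ than untreated libraries was found for 17 OXPHOS genes (18.7%, against 11.7% of all genes), among them NDUFA9, NDUFB3, NDUFS5, UQCRB and COX6C. In 4, NDUFB4, COX7B, COX8A and ATP5F1B, there were more untreated libraries (4.40%, against 5.09%). A peak in every IFNγ and no untreated library was found for 0 (against 0.025%), and the reverse for 0 (against 0%). In the KO clones alone, NDUFA13, UQCRC2 and COX6C had a peak in both IFNγ and no untreated library (3.30%, against 2.27%). Without KO_C5 the 17 genes became 10, so that count rests in part on this clone. Without KO_D2 the pattern of the 3 genes asks for KO_C5 alone, so its count could not fall, and it became 14. Shares of all genes were not set beside these 2 omissions.

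By complex, the changes were in the accessory subunits of complex I and in complexes III to V. Of the 17 genes of complex IV, WT_4 had a peak at 9 untreated and 8 with IFNγ, and WT_5 at 13 and 12, while KO_C5 had 10 and 12 and KO_D2 11 and 12. Accessory subunits of complex I went from 24 to 32 in KO_C5 and from 30 to 31 in KO_D2, with 23 to 25 in WT_4 and 32 to 32 in WT_5. In complex V the counts were 16 to 18, 19 to 19, 17 to 19 and 19 to 19 in the order WT_4, WT_5, KO_C5 and KO_D2. Complex II was complete in all 8 libraries.

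For strength, limma with Benjamini-Hochberg adjustment called no gene for IFNγ over both genotypes (0%), with 281 genes and 2 OXPHOS genes at an unadjusted p under 0.05. It called none in WT alone (0%, 103 and 0 genes) or in KO alone (0%, 299 and 2 genes), and none for the interaction of genotype with IFNγ (0%, 84 and 0 genes). The median of the 60 OXPHOS genes was 0.12 on the log2 scale for IFNγ, against −0.08 over all genes. It was 0.21 in KO, against −0.15, and 0.06 in WT, against −0.01. The WT median turned to −0.14 (63 genes) without the untreated library of WT_4 and to −0.05 without the IFNγ library of WT_5, so that single libraries decided its sign. The KO median fell to 0.03 (61 genes) without the untreated library of KO_C5, and the median over both genotypes to 0.05 without that library and to 0.02 (63 genes) without the untreated library of WT_4. Without the untreated library of WT_5 the median over both was 0.25, as it was without the IFNγ library of WT_4. Under quantile normalization the IFNγ medians were 0.07 and −0.05, and with summit pileup 0.14 and −0.07. The clone ties an untreated to a treated library. With the clone as a replicate block limma called 1 gene, IL15RA, an interferon target that is not of this set. In that fit 19 of the 60 and 1684 of the 10217 genes had an unadjusted p under 0.05, and the smallest adjusted p of the 60 was 0.248.

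In 14 of the 60 genes the centred value was higher with IFNγ in all 4 clones (23.3%, against 9.11% of all genes). Of these, 6 encode parts of ATP synthase, ATP5F1C, ATP5MC2, ATP5MK, ATP5PB, ATP5PF and ATP5PO, and 3 are small subunits of complex III, UQCR10, UQCR11 and UQCRQ. COX5B and NDUFB7 were also among the 14, as were NDUFC2 and NDUFC2-KCTD14, which share a peak. ATP5MC2, a gene for the c-ring, differed by 1.04 in WT_4, 0.05 in WT_5, 1.89 in KO_C5 and 0.80 in KO_D2. UQCR10 differed by 1.24, 0.33, 0.97 and 0.76 in the same order. The difference in WT_5 was the smallest of the 4 for most of them, and no gene passed the test. In summit pileup 16 genes were higher in all 4 clones (against 10.2% of all genes), 13 of them among these 14.

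In 8 genes the value was lower with IFNγ in all 4 clones (13.3%, against 15.9%): ATP5F1E, COX4I1, CYC1, NDUFB10, NDUFV1, SDHA, UQCRFS1 and UQCRH. In summit pileup there were 7 (against 16% of all genes), 6 of them among these 8. UQCRFS1 differed by −0.06 in WT_4, −0.20 in WT_5, −0.86 in KO_C5 and −0.73 in KO_D2, and its mean of −0.46 ± 0.17 (SE, limma, adjusted p = 0.865) had the smallest unadjusted p of the 60 for IFNγ. NDUFV1, which binds NADH, differed by −0.45, −0.05, −0.80 and −0.48. The positive difference with the smallest unadjusted p was 0.72 ± 0.35 for UQCRQ (adjusted p = 0.865). For the interaction UQCRFS1 had −0.67 and NDUFB11 0.80, both with an adjusted p near 1. The errors and p-values given here are from the limma fit on group means, which does not pair the libraries of a clone. With the clone as a replicate block in limma, the smallest adjusted p of the 60 for IFNγ was 0.248.

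These values also moved with base composition. The Spearman correlation across the 10217 genes of the mean IFNγ difference with G plus C content was −0.37, and in single clones it was −0.17 (WT_4), −0.10 (WT_5), −0.38 (KO_C5) and −0.25 (KO_D2). The median difference was 0.09 in the 2580 genes of lowest content and −0.17 in the 2522 of highest content. In the 2550 genes of next lowest content it was −0.05, and in the 2565 of next highest −0.13. The median of the 60 OXPHOS genes was 0.12. Of these, 31 were among the 2580, 15 among the 2550, 9 among the 2565 and 5 among the 2522. For genotype the correlation was −0.01. The part of base composition in the IFNγ difference was not tested.

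Other genes of the pathway were counted in the same way. Of 43 assembly factors, 36 (83.7%) had a promoter peak in all 8 libraries, against 51.2% of all protein-coding genes. The other 7 had one in some, NDUFAF1 (5 libraries), NDUFAF2, NDUFAF7 and TACO1 (6), and UQCC3, COX10 and COX16 (7). Of 14 regulators and carriers, among them NRF1, GABPA, YY1, SP1, ESRRA, TFAM, the packaging protein of mitochondrial DNA, and CYCS, cytochrome c, 13 had a peak in all 8. The exception was PPARGC1A, the coactivator PGC-1 alpha of muscle and brown fat, with none. None of the 14 had a peak in more libraries of 1 genotype or of 1 treatment. Among the 43 assembly factors 4 had more WT and 2 more KO libraries, against 13.2% and 3.81% of all genes. More IFNγ libraries were seen for 6 of the 43 and more untreated ones for 0, against 11.7% and 5.09% of all genes.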

How the data were processed

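FAIRE-seq peak lists of 8 U2OS libraries were analysed, 2 in each of 4 groups. Per the labels and the methods, the authors trimmed reads with Trimmomatic, aligned them to GRCh38 with Bowtie2 2.2.5, filtered them on mapping quality with SAMtools 1.14 and ran MACS2 2.2.7.1 on each library. The deposited fold enrichment is the ratio of summit pileup to local background. Each deposited −log10 p or −log10 q value and the deposited score, which was not used, are from MACS2 too. Whether a control was used and how duplicates were handled is not given in the sources used here.

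The strongest peak (highest −log10 p) with at least 1 bp within 500 bp of an annotated start site of GENCODE 44 was taken for each gene. The number of fragments at each summit was found from these 2 values by inverting the Poisson formula of MACS2, which worked for 100% of 195897 peaks. Genes with a peak in all 8 libraries were tested with limma 3.58.1 (R 4.3.3), on clone means for genotype and on 4 group means for the rest, with Benjamini-Hochberg adjustment, after centring log2 fold enrichment on the median of each library. Code was checked on simulated data. One gene of the set, which stays in the counts, and one listed marker are not reported here by name. The members, lists, motifs and tests were chosen with earlier results of these data known. Genes named in the text are those with a peak in 0 to 7 libraries, the isoform pairs, the extremes of each complex, complex II, and the lowest p in each direction per contrast; the genes of the patterns within clones, of the comparisons with WT_4 and of the motifs were picked after their values were seen.

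By the labels the untreated and the treated library of a clone are paired, and the correlation of their deviations from the group means over genes was 0.73 for WT and 0.40 for KO clones. With 2 clones behind each group, the p-values rest on the spread between clones, pooled over the groups. In limma that spread is also drawn toward the spread of all genes, so a p-value does not measure the 2 clones of a group alone.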

Additional observations from a re-analysis of the deposited data

Results flagged for a closer look

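The IFNγ minus untreated count of complex IV genes with a promoter peak was −1 in WT_4 and −1 in WT_5, and 2 in KO_C5 and 1 in KO_D2. The count fell in both WT clones and rose in both KO clones. The share of all protein-coding genes with a peak went from 63.4% to 59.7% in WT_4 and from 65.4% to 68.3% in WT_5. It went from 57.8% to 64.4% in KO_C5 and from 58.0% to 62.0% in KO_D2. Only in WT_5 did the count and this share move in opposite directions. The difference between the genotypes was not tested, and it rests on steps of 1 or 2 genes of 17.

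The mitochondrial chromosome, which encodes the remaining subunits of complexes I, III, IV and V, was outside all comparisons. In 8 of 8 libraries it carried 1 peak over nearly its whole length (16564 to 16567 bp), with a fold enrichment from 36.8 in KO_D2 with IFNγ to 118 in untreated KO_D2. Mitochondrial DNA has no nucleosomes and many copies per cell, so its peak is not a measure of promoter opening.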

How the results depend on the processing

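The peak counts held with stricter peaks (−log10 q from 3, or fold enrichment from 4), lists of 16730 peaks, windows of 250 and 1000 bp and the summit in place of the edge, where each was within 1.5 times its value above, although NDUFS4 and UQCRC2 had no peak in lists of equal length. With canonical start sites alone 7 genes had a larger share of WT libraries. Leaving out a library or a clone (the clones were added after the data were seen) gave 2 to 16 genes with a larger share of WT and 0 to 21 with a larger share of KO libraries, 10 to 20 with a larger share of IFNγ and 1 to 7 of untreated libraries, and 3 to 14 gained in KO. Shares of all genes were not set beside these ranges. With fewer KO libraries the count gained in KO can only rise or stay, because the pattern asks for less. Without the 9 isoforms, 0 of 82 genes had a peak in no library.

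In limma the count of OXPHOS genes called stayed 0 in every setting except the omission of WT_5 for genotype (0 to 3 genes over the omissions, and 0 to 175 over all genes). With the clone as a replicate block, which fits the pairing of the labels, 1 gene over all was called for IFNγ (IL15RA, adjusted p = 0.012) and 1 for IFNγ in WT (IL15RA, adjusted p = 0.030), and it changed no other call. With genes in at least 6 libraries, missing values were left out of the fit. The log2 differences with the lowest p in each direction of a contrast kept their sign in every setting run, NDUFS6 in untreated clones at −0.04 with summit pileup. Of all 60, 38 changed sign in some setting for genotype (19 with summit pileup) and 27 for IFNγ (1 with summit pileup). Peak lists give no read counts, 2 clones stand behind each genotype, and the fewest fragments at a called summit were 5 or 6. The part of list length in missing peaks was not tested. Untreated KO_D2 had the shortest list, with 16730 peaks, and 79 OXPHOS genes, against 21715 and 66 in untreated WT_4. With lists cut to equal length these 2 libraries had 79 and 62.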
